A study of Homo sapiens with 54 samples.

Results

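BT-20 is an established human breast cancer cell line, and the subject here is its untreated state set against the other 5 cancer lines of the same series. The members are the 3 control libraries of BT-20, of 54 libraries in the whole series. They were compared with 15 control libraries: 3 each of the colorectal lines SW48 and SW620, the stomach lines NCI-N87 and MKN-45, and BT-474, the second breast line. All 6 lines were grown in DMEM with fetal bovine serum and carried no drug in these libraries, and the other 36 libraries of the series are drug-treated cells (trametinib, palbociclib or afatinib) or controls of an earlier set of SW48 and SW620. RNA was read from the 3′ ends of transcripts from 500 ng of RNA with a Lexogen kit. Each group stands for 1 cell line, so a difference is between lines and not between tissues. The sample titles do not say whether the 6 lines were processed together, and a run difference could not be told apart from a line difference. Each library is bulk RNA, in which fewer cells with a transcript and less of it per cell cannot be told apart. Nothing states that the 3 libraries of a line were separate cultures, so p-values measure only the spread between these libraries, which may be technical.

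BT-20 is known as a triple-negative breast line, that is, one without appreciable estrogen receptor, progesterone receptor or amplified HER2, and for carrying extra copies of EGFR, the gene of the epidermal growth factor receptor. Breast epithelium has a luminal layer, kept by factors such as GATA3, FOXA1 and the estrogen receptor, and a basal layer, marked by keratins such as KRT5, KRT14 and KRT17. Tumour lines can hold features of both layers. A gene that is silent in one line and active in others can be lost from the genome, shut off by DNA methylation or lack its activators, and RNA counts do not tell these apart.

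The control libraries held 6375471 to 7349536 counts in BT-20 and 5106615 to 12806042 counts in the other lines. Levels are given in CPM, the count per unit of library total after scaling of the libraries to each other. For the other 15 libraries, 3 values in a row are the lowest, the median and the highest. Of 15211 genes tested with edgeR's quasi-likelihood test, 67.3% differed between BT-20 and the mean of the 5 lines. Of these genes, 5622 were higher in BT-20 than in the mean of the 5 lines (37.0%) and 4622 were lower (30.4%) at an adjusted p under 0.05. A gene was said to set BT-20 apart when it differed from each of the 5 lines in the same direction and the largest of the 5 p-values passed after adjustment over all genes. That held for 14.9% of genes, 1217 that were higher (8.0%) and 1054 that were lower (6.93%). The gap to the nearest line was at least 2-fold for 615 higher (4.04%) and 384 lower genes (2.52%), and in 961 of these 999 the 3 BT-20 libraries lay on one side of the other 15. Over all genes tested, 1870 (12.3%) lay wholly above and 1270 (8.35%) wholly below the other libraries.

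Taken line by line, BT-20 differed from NCI-N87 in 9489 genes (62.4%), with 4744 higher (31.2%) and 4745 lower (31.2%). It differed from BT-474, the other breast line, in 9687 genes (63.7%, with 31.6% higher and 32.0% lower). The counts were 10385 against SW48 (68.3%, with 34.1% and 34.2%), 10673 against MKN-45 (70.2%, with 36.4% and 33.7%) and 10749 against SW620 (70.7%, with 34.6% and 36.1%). The median absolute log2 fold change was 0.76 against NCI-N87, 0.81 against BT-474, 0.89 against SW48 and 0.97 against both SW620 and MKN-45. One library stood apart within its own line: control 1 of NCI-N87 was the shallowest of the 18, with 5106615 counts, yet had counts for 17978 genes, against 16334 and 15777 genes in controls 2 and 3. With NCI-N87 left out of the fit, 3722 genes set BT-20 apart from the remaining 4 lines, 1559 of them by at least 2-fold. Leaving out another line instead also raised these counts, to between 2619 (SW48) and 3051 (BT-474). By at least 2-fold they were 1215 without SW48 or SW620, 1219 without MKN-45 and 1482 without BT-474.

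The genes with the widest upward gap were read at 20 CPM or more in BT-20, and most were near 0 in every other line. SYCE1 encodes a protein of the synaptonemal complex, which joins chromosomes in meiosis. It had 37.6, 36.8 and 32.9 CPM in BT-20, against 0, 0 and 0.141 CPM in the other 15 libraries. Its nearest line was MKN-45, at a log2 fold change of 9.03 (adjusted p for all 5 lines = 1.7e-08, edgeR). CSAG1, a cancer-testis antigen gene on chromosome X, had 35, 28.4 and 27.7 CPM in BT-20, against 0, 0 and 0.690 CPM in the other 15 libraries. MAG, the myelin-associated glycoprotein, had 40.7, 40.9 and 45.4 CPM in BT-20, against 0, 0.137 and 0.539 CPM in the other 15 libraries. TDRD12, a tudor-domain protein of the germ-cell piRNA pathway, had 20.5, 21 and 21.4 CPM in BT-20, against 0, 0 and 0.608 CPM in the other 15 libraries. TPTE, a testis-expressed phosphatase-like gene that has close copies in the genome, had 19, 21.4 and 21.9 CPM in BT-20, against 0, 0 and 1.5 CPM in the other 15 libraries. Genes were named here only where the groups did not overlap. The calls of CSAG1 and TPTE were lost under the DESeq2 test (adjusted p = 0.29 and 0.17) and held in the other 22 of 23 alternative settings.

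S100A9, a calcium-binding protein that myeloid and stressed epithelial cells secrete, had 103, 96 and 104 CPM in BT-20, against 0, 0 and 1.66 CPM in the other 15 libraries. KLK5, a secreted serine protease of skin, had 146, 155 and 165 CPM in BT-20, against 0, 0 and 6.69 CPM in the other 15 libraries, and SW48 averaged 5.94 ± 0.713 CPM (SD, n = 3). CST6, cystatin E/M, an inhibitor of cysteine proteases, had 25.5, 25.1 and 27 CPM in BT-20, against 0, 0 and 4.04 CPM in the other 15 libraries. DMBT1, a secreted scavenger protein of mucosal surfaces, had 56.2, 57.4 and 60.8 CPM in BT-20, against 0, 0 and 2.35 CPM in the other 15 libraries. GJA5, the gap junction protein connexin 40, had 20.5, 24.1 and 20.4 CPM in BT-20, against 0, 0 and 0.867 CPM in the other 15 libraries. ALOX15, a lipoxygenase of polyunsaturated fatty acids, had 23.2, 20.2 and 21.9 CPM in BT-20, against 0, 0 and 1.24 CPM in the other 15 libraries, and COL5A1, a fibrillar collagen chain, had 50.2, 42.7 and 49.6 CPM in BT-20, against 0, 0.749 and 2.69 CPM in the other 15 libraries. Across these 7 genes the highest value in any other library was the KLK5 level of 6.69 CPM. The GJA5 call was lost under the DESeq2 test alone (adjusted p = 0.058).

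AKR1B1, aldose reductase (chromosome 7, 134442350 to 134459239, GRCh38), differed in kind, since 2 other lines read it clearly. It had 1345, 1290.2 and 1265 CPM in BT-20, against 0.0994, 0.577 and 44.9 CPM in the other 15 libraries, with means of 1300.0 ± 40.6 CPM in BT-20 against 41.3 ± 3.22 CPM in SW620 and 33.1 ± 6.59 CPM in MKN-45 (SD, n = 3 each). The gap to SW620 was 4.98 on the log2 scale (adjusted p = 2.5e-13, edgeR). SHOX2, a homeobox factor of limb and heart development, had 140.2, 146 and 149 CPM in BT-20, against 3.31, 6.89 and 9.34 CPM in the other 15 libraries, a gap of 4.14 to SW620. Its gene model overlaps that of RSRC1 on the other strand (211 CPM in BT-20), as SYCE1 overlaps CYP2E1 (8.92 CPM), and the sources used here do not say whether strand was counted. The remaining genes among the 20 with the widest gap were TRIM17, an E3 ubiquitin ligase, FTCD, an enzyme of histidine breakdown, KLHDC7B, a kelch-domain protein, GNAO1, a G protein alpha subunit, and the non-coding RNAs SNHG18 and LINC00662. Their BT-20 means ran from 21.9 CPM for TRIM17 to 67.9 CPM for LINC00662, with gaps between 3.67 and 5.51 on the log2 scale. The TRIM17 call was lost under the DESeq2 test alone (adjusted p = 0.50). NCI-N87 was the nearest line for 174 and BT-474 for 177 of the 615 genes that were higher by at least 2-fold.

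**Figure D1:**
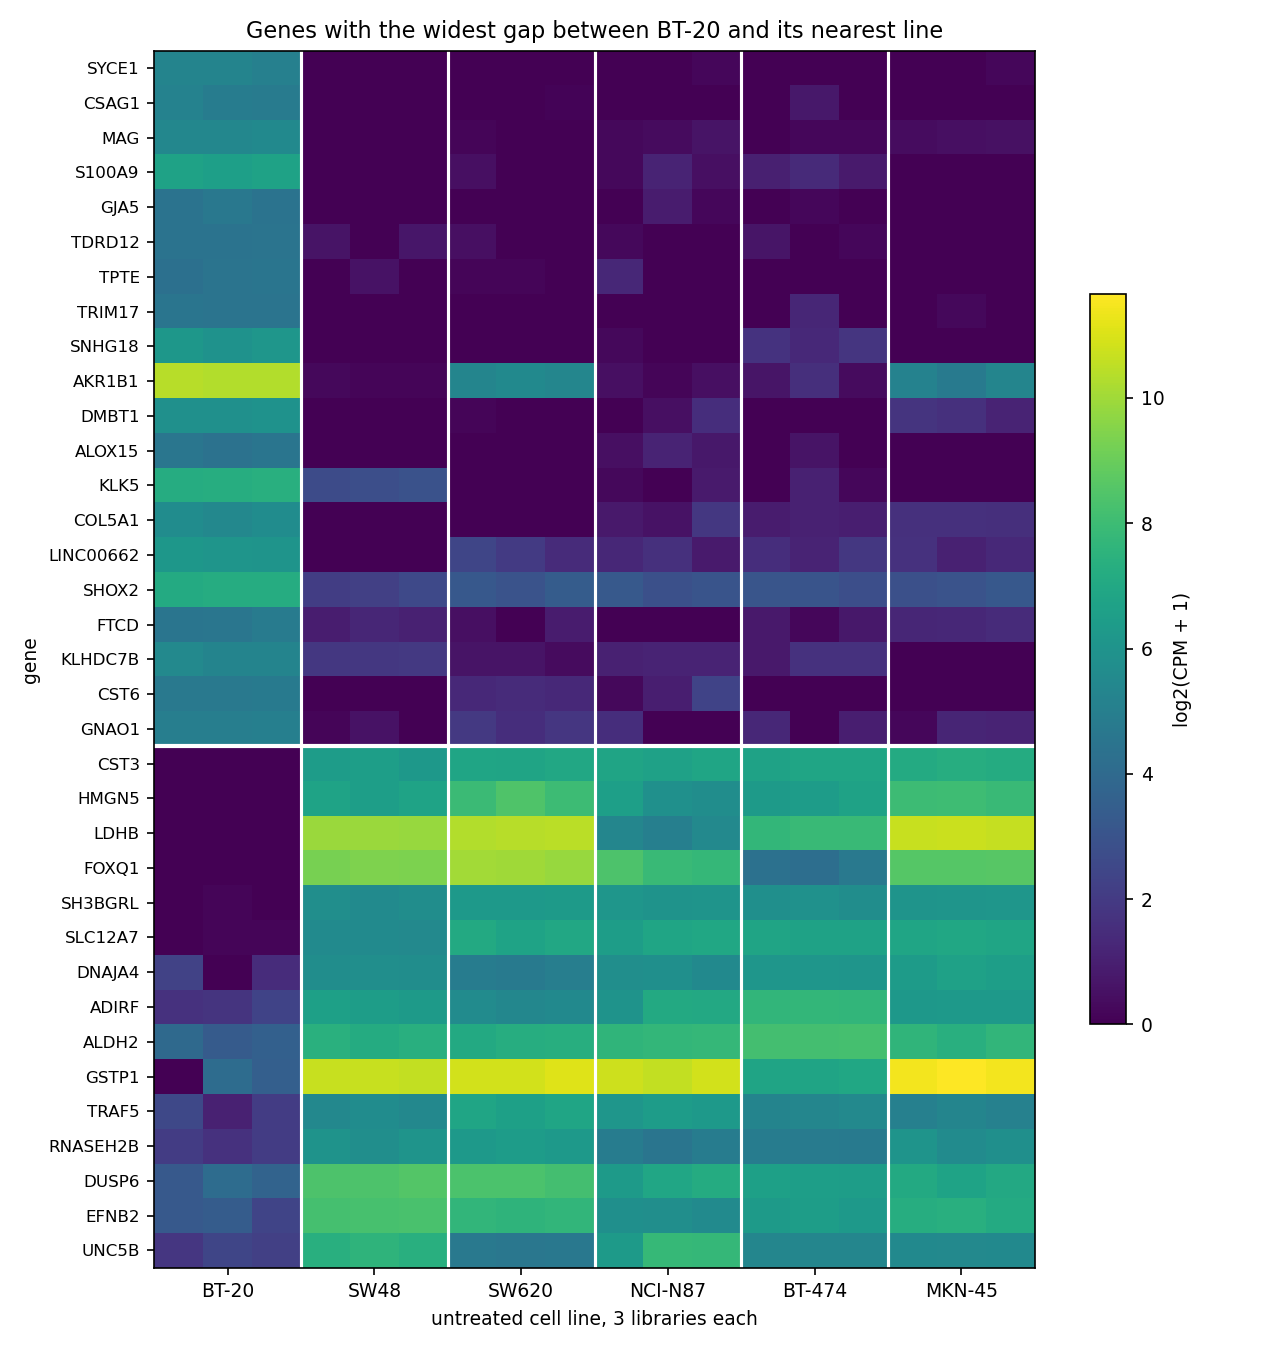
Level of the 20 genes with the widest upward gap (above the white line) and the 15 with the widest downward gap (below it) between BT-20 and its nearest line, in each of the 18 control libraries. Colour is log2(CPM + 1), libraries run left to right by line with BT-20 first, and rows are ordered by the smallest of the 5 fold changes. The upper rows are bright in the 3 BT-20 columns, and CST3, HMGN5, LDHB and FOXQ1 show no count there.

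Among genes read at 20 CPM or more in every other line, 4 had no count at all in BT-20. CST3 encodes cystatin C, a secreted cysteine protease inhibitor that most cells make (chromosome 20, 23626706 to 23637955, GRCh38). It had 0, 0 and 0 CPM in BT-20, against 72.7, 113 and 153 CPM in the other 15 libraries, so it was at least 657-fold lower than in SW48, its lowest other line, when the BT-20 level is taken at a floor of 3 counts over its 3 libraries (0.127 CPM; floors cover counting error only). LDHB, the lactate dehydrogenase subunit that favours the use of lactate (chromosome 12, 21635342 to 21657842), had 0, 0 and 0 CPM in BT-20, against 31.2, 942 and 1713 CPM in the other 15 libraries. Its line means ran from 38.3 ± 6.46 CPM in NCI-N87 to 1639 ± 69.1 CPM in MKN-45, and BT-20 was at least 302-fold lower than NCI-N87. FOXQ1, a forkhead transcription factor, had 0, 0 and 0 CPM in BT-20, against 17.4, 384 and 1064 CPM in the other 15 libraries, and was at least 161-fold lower than in BT-474. HMGN5, a nucleosome-binding protein (chromosome X, 81113699 to 81201913), had 0, 0 and 0 CPM in BT-20, against 51.6, 107 and 344 CPM in the other 15 libraries, at least 528-fold lower than in NCI-N87. By the same limits of 20 CPM in every other line and no count in its own, NCI-N87 and MKN-45 had 2 such genes each and SW48, SW620 and BT-474 had 0.

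HMGN5 and SH3BGRL are neighbours on chromosome X (chromosome X, 81202102 to 81298547 for SH3BGRL, a small thioredoxin-fold protein) and are read in opposite directions from one shared start region. Both were near 0 in BT-20: SH3BGRL had 0, 0.120 and 0 CPM in BT-20, against 47.3, 64 and 81.9 CPM in the other 15 libraries, that is, 1 count in all. The RefSeq windows from 250 bases before to 50 bases after the 2 starts share 288 bases. The HMGN5 window (chrX:81201864-81202163, minus strand, GRCh38.p14) is shown because the data bear on it through both genes, with each CG dinucleotide, the site of DNA methylation in human cells, in capitals.
HMGN5: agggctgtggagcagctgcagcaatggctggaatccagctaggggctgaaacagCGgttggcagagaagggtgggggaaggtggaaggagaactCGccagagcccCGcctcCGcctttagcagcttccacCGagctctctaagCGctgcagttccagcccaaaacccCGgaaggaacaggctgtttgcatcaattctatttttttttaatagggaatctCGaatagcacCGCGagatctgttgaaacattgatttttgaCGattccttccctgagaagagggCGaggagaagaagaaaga
It holds 12 CG dinucleotides, against a median of 14 in the 35116 promoter windows of the same length. DNA methylation was not measured in these files.

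SLC12A7, a potassium-chloride cotransporter (chromosome 5, 1050384 to 1155899), had 0, 0.120 and 0.126 CPM in BT-20, against 43.5, 112 and 133 CPM in the other 15 libraries, or 2 counts in all. Of the other 25 tested genes within 2 Mb on chromosome 5, 15 were higher and 6 lower than the mean of the lines. Over all genes those shares were 37.0% and 30.4%. Of the 25, 3 were higher and 2 lower than in all 5 lines, beside 8.0% and 6.93% of all genes. The 2 lower ones were NKD2 and TERT. NKD2, an antagonist of WNT signalling, held 1 count in BT-20 against line means of 7.08 to 102 CPM, and TERT, the catalytic subunit of telomerase, held none against 0.458 to 2.02 CPM. For TERT, the call held in 17 of 23 alternative settings and was lost with the replicate block (adjusted p = 0.061) and without NCI-N87 control 2, BT-20 control 1, BT-20 control 2, BT-20 control 3 or BT-474 control 3 (adjusted p up to 0.43 with 1 library left out, edgeR). CLPTM1L, beyond TERT, was higher than in all 5 lines (654 ± 23.6 CPM, SD, n = 3, against 175 to 393 CPM; log2 fold change from the mean of the lines 1.16, adjusted p = 1.0e-07, edgeR). The neighbours NKD2, TERT and CLPTM1L were chosen after their values were seen. Around CST3, 8 of the other 19 tested genes within 2 Mb were lower than in all 5 lines and 0 were higher, against 6.93% and 8.0% of all genes. They include ACSS1, a mitochondrial acetyl-CoA synthetase, with no count in BT-20 against 0.507 to 160.2 CPM, and PYGB, brain glycogen phosphorylase, with 15.9 ± 1.06 CPM against 74.1 to 137 CPM, both also chosen after their values were seen. For ACSS1, the call held in 19 of 23 alternative settings and was lost without SW620 control 2, BT-20 control 1, BT-20 control 2 or BT-20 control 3 (adjusted p up to 0.27 with 1 library left out, edgeR).

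The other genes among the 15 with the widest downward gap kept low levels in BT-20, though GSTP1 and DNAJA4 each lacked any count in a BT-20 library. GSTP1, a glutathione transferase that detoxifies electrophiles, had 0, 16.2 and 10.7 CPM in BT-20, against 109, 1739 and 3227 CPM in the other 15 libraries. One BT-20 library thus held no GSTP1 count, while the lowest other line, BT-474, averaged 115 ± 7.97 CPM (log2 fold change −6.95 from the mean of 5 lines, SE 0.47, adjusted p = 1.8e-10, edgeR). ALDH2, mitochondrial aldehyde dehydrogenase, had 14.7, 9.12 and 10.8 CPM in BT-20, against 135, 195 and 301 CPM in the other 15 libraries. DUSP6, a phosphatase that ERK induces and that switches ERK off, had 8.55, 16.6 and 12.1 CPM in BT-20, against 79.7, 133 and 367 CPM in the other 15 libraries. RNASEH2B, a subunit of the enzyme that removes ribonucleotides from DNA, had 3.26, 2.16 and 3.14 CPM in BT-20, against 22, 52.5 and 86.5 CPM in the other 15 libraries. DNAJA4, a co-chaperone, ADIRF, a regulator of fat cell differentiation, TRAF5, a signal adaptor of the TNF receptor family, EFNB2, the ligand ephrin-B2, and UNC5B, a netrin receptor, averaged 1.9, 2.86, 3.03, 7.43 and 3.55 CPM in BT-20, at gaps of 3.97, 3.96, 3.55, 2.79 and 2.75 on the log2 scale.

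BT-20 and 3 of the other lines were also sequenced under afatinib, which blocks ERBB family kinases by binding them covalently, in 12 libraries that the control comparison did not use (BT-20, NCI-N87, BT-474 and MKN-45, 3 each, 3401565 to 7455613 counts). There, 2044 of 14481 genes were higher in BT-20 than in all 3 other lines (14.1%) and 1553 lower (10.7%). Of the 615 genes higher by at least 2-fold in the controls, 588 were tested with afatinib and 539 of these (91.7%) were again higher than in all 3 lines. Of the 384 lower genes, 379 were tested and 295 (77.8%) were again lower. None of the genes tested was apart from all 3 lines in the opposite direction. Their choice as apart from the same lines in the controls made such a call unlikely. AKR1B1 averaged 1584 ± 228 CPM in afatinib-treated BT-20 against 37.7 ± 1.5 CPM in afatinib-treated MKN-45, S100A9 104 ± 8.31 CPM against 0.179 ± 0.310 CPM in BT-474, and LDHB and CST3 had no count in BT-20 in these libraries either (SD, n = 3 each). Within BT-20, afatinib against control called 35 genes higher (0.273%) and 40 lower (0.312%) of 12810 by edgeR, a comparison that shares the BT-20 controls. Of the 615 higher genes 15 were among these calls, and of the 384 lower genes 2. The shared controls tie these overlaps to how the genes were chosen, so nothing is read from them. The total number of calls in this comparison was unstable and ran from 6 to 96 with single libraries left out. DMBT1 was 0.54 on the log2 scale (adjusted p = 0.015, edgeR), a call that held in 7 of 11 alternative settings and was lost with the replicate block (adjusted p = 0.055) and without any 1 of the 3 BT-20 controls (adjusted p up to 0.10). The other 19 genes with the widest upward gap did not pass, with AKR1B1 at 0.24 (adjusted p = 0.24) and SYCE1 at −0.09 (adjusted p = 0.79).

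The breast label was checked against lineage markers, and BT-20 held some markers of each breast layer and lacked others. GATA3, the luminal master factor, had 104, 100.1 and 97.3 CPM in BT-20, against 0, 5.82 and 303 CPM in the other 15 libraries, lower than BT-474 at 289 ± 15.8 CPM and far over the 4 gut lines, whose means ran up to 7.6 CPM (log2 fold change from the mean of 5 lines 4.41, SE 0.10, adjusted p = 2.0e-17, edgeR). FOXA1, its partner at estrogen-responsive genes, averaged 33.1 ± 2.59 CPM in BT-20 against 208 ± 1.63 CPM in BT-474, and ESR1, the estrogen receptor, 7.07 ± 1.28 CPM against 25.5 ± 2.63 CPM (SD, n = 3 each). PGR, the progesterone receptor that estrogen induces, had no count in BT-20 and 262 ± 5.2 CPM in BT-474. TFF1 and TFF3, secreted trefoil peptides of luminal cells, also had no count, against 336 ± 10.5 CPM and 551 ± 34.8 CPM in BT-474. Every list count that follows is to be read beside the shares over all genes, 37.0% higher and 30.4% lower. Of 26 luminal genes tested, 5 were higher and 12 lower than the mean of 5 lines. Their median log2 fold change was −0.56, beside 0.03 for all genes. With levels at no count set to the floor the median was −0.69, beside 0.009 for all genes. MYB, BCL2 and the keratin KRT8 were lower than in all 5 lines, KRT8 at 271 ± 14.8 CPM against 464 to 925 CPM (its gene overlaps KRT18). For BCL2, the call held in 20 of 23 alternative settings and was lost without BT-20 control 1, BT-20 control 2 or MKN-45 control 3 (adjusted p up to 0.098 with 1 library left out, edgeR).

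Among the basal genes, KRT5 and CDH3 were higher than in all 5 lines while KRT14 and KRT17 were near 0. KRT5 had 29.9, 31.8 and 31.5 CPM in BT-20, against 0, 0.820 and 12.5 CPM in the other 15 libraries, with a gap of 1.54 to MKN-45 (adjusted p = 1.3e-04, edgeR). CDH3, P-cadherin, had 254, 231 and 232 CPM in BT-20, against 0.310, 35.8 and 117 CPM in the other 15 libraries. MYLK, the myosin light chain kinase of myoepithelial cells, averaged 6.91 ± 2.37 CPM, and EGFR, also on this list, is described below. KRT14 and KRT17, by contrast, held 1 count each in BT-20, and KRT6B, KRT6C and NGFR held none. The laminin chains LAMA3 and LAMB3 and the collagen COL17A1, which anchor basal cells to the basement membrane, were lower than the mean of the lines, COL17A1 at 0.772 ± 0.358 CPM against up to 268 ± 25.5 CPM in SW48. In all, 21 of 26 basal genes passed the filter on low counts, 6 were higher and 8 lower, and the median was −0.93.

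Intestinal markers were largely silent, with 3 counts or fewer in BT-20 for 13 of 20 genes. Of 15 intestinal genes tested 2 were higher and 9 lower, beside 37.0% and 30.4% of all genes, with a median of −5.16, or −3.83 with levels at no count set to the floor. HNF4A, a nuclear receptor of gut and liver, had 1 count in BT-20 against line means of 2.94 to 63.4 CPM, and CDH17, liver-intestine cadherin, and PHGR1 had none, against 1.01 to 110.3 CPM and 2.0 to 77.7 CPM. CDX2, the intestinal homeobox factor, had 0, 0 and 4.27 CPM in BT-20, so only 1 library held it, against 122 ± 25.3 CPM in NCI-N87 and no count in BT-474. OLFM4, a secreted glycoprotein of intestinal stem cells, ran the other way with 1.9, 2.52 and 1.89 CPM in BT-20, against 0, 0 and 0.469 CPM in the other 15 libraries, though the call held in 18 of 23 alternative settings and was lost with the replicate block, with no filter on low counts (adjusted p = 0.084), under the DESeq2 test (adjusted p = 0.72) and without BT-20 control 2 or MKN-45 control 3 (adjusted p up to 0.063 with 1 library left out, edgeR). Of 15 gastric genes 4 were higher and 8 lower, and the gastric mucin MUC5AC had no count against 0.541 to 70.1 CPM, while PSCA, prostate stem cell antigen, stood at 59.7 ± 5.63 CPM, close to NCI-N87 with 50.8 ± 20.3 CPM. The summed level of the gastric list was 222 to 252 CPM in BT-20 against 5.17 to 499 CPM in the other libraries.

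Of 18 mesenchymal genes tested 7 were higher and 6 lower, near the 37.0% and 30.4% of all genes. VIM, the filament vimentin, averaged 10.4 ± 1.64 CPM in BT-20 against 224 ± 1.15 CPM in SW620, while TWIST2, a repressor of epithelial genes, averaged 11.3 ± 2.22 CPM against 0 to 4.67 CPM and COL6A2, a collagen VI chain, 13 ± 1.77 CPM against 0.0689 to 0.625 CPM. For TWIST2, the call held in 22 of 23 alternative settings and was lost without BT-20 control 2 (adjusted p up to 0.057 with 1 library left out, edgeR). ZEB2, CDH11, THY1 and PDGFRB held 3 counts or fewer in BT-20. Of 16 immune, endothelial and neural markers 10 were tested, 2 were higher and 3 lower. Their summed level was 90.1 to 98.1 CPM in BT-20 against 68.7 to 352 CPM in the other libraries, and the T cell marker CD3E held 1 count in BT-20. Their part in other results was not tested. CDH5, VE-cadherin of endothelial cells, was higher than in all 5 lines with 11.9, 10.7 and 10.7 CPM in BT-20, against 0, 0 and 0.248 CPM in the other 15 libraries, while the endothelial markers PECAM1 and KDR stood at 0.339 and 0.266 CPM. Of 29 epithelial junction genes 14 were higher and 10 lower, and E-cadherin (CDH1) had 716, 724 and 742 CPM in BT-20, against 45.7, 276 and 520.2 CPM in the other 15 libraries, the highest of the 6 lines, and the call held in 19 of 23 alternative settings and was lost without BT-20 control 1, BT-20 control 2, BT-20 control 3 or BT-474 control 2 (adjusted p up to 0.077 with 1 library left out, edgeR). CLDN7, a tight junction claudin, and MARVELD3 were higher than in all 5 lines, and the plaque genes CTNNB1 and DSP were lower, DSP at 277 ± 7.06 CPM against 464 to 996 CPM. For CLDN7, which overlaps ELP5, the call held in 10 of 23 alternative settings (adjusted p up to 0.15 with 1 library left out, edgeR). For CTNNB1, the call held in 18 of 23 alternative settings and was lost with no filter on low counts (adjusted p = 0.078) and without NCI-N87 control 2, BT-20 control 1, BT-20 control 3 or BT-474 control 1 (adjusted p up to 0.096 with 1 library left out, edgeR).

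**Figure D2:**
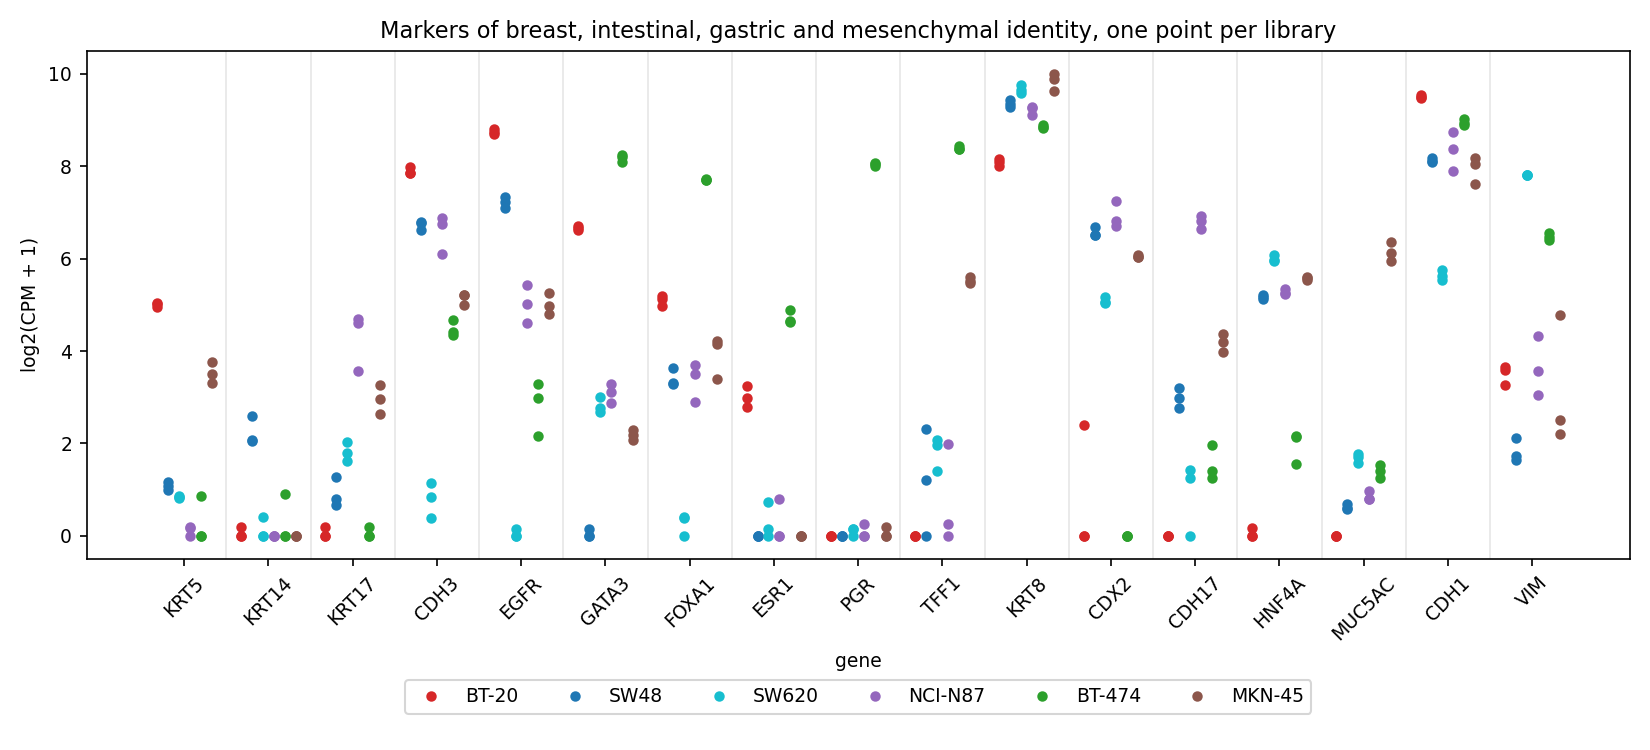
Level of 17 identity markers on a log2(CPM + 1) scale, one point per control library and BT-20 in red at the left of each gene. BT-20 stands highest for KRT5, CDH3, EGFR and CDH1 and second to BT-474 for GATA3, FOXA1 and ESR1. It lies at or near 0 for KRT14, KRT17, PGR, TFF1, CDH17, HNF4A and MUC5AC.

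EGFR (chromosome 7, 55019017 to 55211628, GRCh38) had 446, 413 and 428 CPM in BT-20, against 0, 27.1 and 160.1 CPM in the other 15 libraries. The mean of 429 ± 16.5 CPM in BT-20 compares with 148 ± 12.5 CPM in SW48, the nearest line, and 0.0370 ± 0.0641 CPM in SW620 (SD, n = 3 each), a gap of 1.53 on the log2 scale to SW48 (adjusted p = 3.6e-06) and a log2 fold change of 5.64 (SE 0.15, adjusted p = 2.1e-16, edgeR) from the mean of 5 lines. ERBB2, the receptor HER2, averaged 110.1 ± 6.57 CPM in BT-20 against 1919 ± 294 CPM for NCI-N87 and 1146 ± 18.6 CPM for BT-474, ERBB3 averaged 76.9 ± 4.57 CPM against 58.6 to 241 CPM, and ERBB4 held 1 count. Among the ligands AREG, amphiregulin, was lower than in all 5 lines with 4.07, 2.76 and 3.39 CPM in BT-20, against 8.48, 109 and 466 CPM in the other 15 libraries, EREG, epiregulin, averaged 1.02 ± 0.216 CPM against 1.96 to 127 CPM, and NRG2, a neuregulin, was higher than in all 5 at 5.03 ± 0.950 CPM against 0.0338 to 0.464 CPM. For AREG, the call held in 22 of 23 alternative settings and was lost without BT-20 control 2 (adjusted p up to 0.061 with 1 library left out, edgeR). Of 15 genes of the family and its ligands tested, 5 were higher and 7 lower.

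Of the 11 other tested genes within 2 Mb of EGFR on chromosome 7, 9 were higher than the mean of 5 lines and 0 lower, beside 37.0% and 30.4% of all genes, and 3 were higher than in all 5 lines, beside 8.0%. SEC61G, a subunit of the protein translocation channel, averaged 1025 ± 58.3 CPM against 182 to 398 CPM (log2 fold change 1.75, adjusted p = 7.2e-11, edgeR), VOPP1 246 ± 7.07 CPM against 48.4 to 182 CPM (log2 fold change 1.54) and CHCHD2, a mitochondrial protein, 4678 ± 124 CPM against 748 to 2987 CPM (log2 fold change 1.44). The neighbours LANCL2, MRPS17, GBAS, PSPH, SUMF2 and CCT6A were higher than the mean but did not pass against every line. Gene copy number was not measured in these files.

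Other receptor tyrosine kinases were mixed, with 9 of 22 tested higher and 11 lower. AXL, a receptor of mesenchymal-like cells, held 1 count in BT-20 against 0.804 to 22.8 CPM, and FGFR4 averaged 2.4 ± 0.442 CPM against 7.96 to 60.7 CPM, both lower than in all 5 lines. MET, the hepatocyte growth factor receptor, averaged 71.5 ± 2.48 CPM, and the means of BT-474 and BT-20 differed by less than their spread (70.4 ± 1.56 CPM in BT-474). Of 25 genes that report MEK and ERK output, 7 were higher and 14 lower, with a median log2 fold change of −0.45. DUSP6, given above, and SPRY1, a feedback inhibitor of receptor signalling (1.86 ± 0.571 CPM against 6.02 to 32.9 CPM), were lower than in all 5 lines. DUSP5, a nuclear ERK phosphatase, was higher than in all 5 at 30.1 ± 3.52 CPM against 2.96 to 16.4 CPM. The DUSP5 call was weak: the call held in 8 of 23 alternative settings (adjusted p up to 0.17 with 1 library left out, edgeR). ETV5, an ERK-induced factor, averaged 109.6 ± 6.08 CPM, higher than the mean of the lines by 0.65 on the log2 scale.

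CDKN2A (chromosome 9, 21967752 to 21995324), which encodes the CDK4 and CDK6 inhibitor p16, had no count in BT-20. Line means were 387 ± 35.9 CPM in SW620, 187 ± 37.6 CPM for NCI-N87, 25.8 ± 5.27 CPM for BT-474 and 7.43 ± 0.749 CPM in SW48, and MKN-45 was near 0 as well (0.0469 ± 0.0812 CPM; SD, n = 3 each). The adjacent inhibitor gene CDKN2B and the antisense RNA CDKN2B-AS1 also had no count in BT-20, against up to 31 ± 0.908 CPM for CDKN2B in SW620. MTAP, the next gene on the other side and an enzyme of methionine salvage, averaged 44.5 ± 0.997 CPM in BT-20 against 0.0469 ± 0.0812 CPM for MKN-45. The 2 lines with CDKN2A near 0 thus differed in MTAP (adjusted p = 3.1e-14, edgeR). Of 21 genes of the G1/S brakes and the cyclin D, RB and E2F pathway, 5 were higher and 11 lower (median −0.65). The kinases CDK4 (106 ± 22.2 CPM against 197 to 291 CPM) and CDK2 (78.7 ± 1.64 CPM against 137 to 255 CPM) were lower than in all 5 lines. RB1, the retinoblastoma gene, averaged 50.7 ± 2.79 CPM against 36.8 to 47.8 CPM.

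FDXR, a mitochondrial reductase, and DDB2, a DNA damage sensor, were lower than in all 5 lines, FDXR at 11.5 ± 1.04 CPM against 15.6 to 43.8 CPM. For FDXR, the call held in 19 of 23 alternative settings and was lost with no filter on low counts (adjusted p = 0.076) and without BT-20 control 2, BT-474 control 1 or BT-474 control 2 (adjusted p up to 0.11 with 1 library left out, edgeR). CDKN1A, the cell-cycle inhibitor p21, averaged 8.56 ± 1.66 CPM against 0.694 ± 0.388 CPM in SW620, the one lower line, and 272 ± 3.53 CPM in SW48. PIK3CA, a catalytic subunit of PI3 kinase, was 0.41 on the log2 scale over the mean of the lines (adjusted p = 8.8e-04, edgeR). MYC averaged 27.8 ± 0.958 CPM, between MKN-45 with 22.9 ± 8.21 CPM and SW48 with 203 ± 11.9 CPM.

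**Figure D3:**
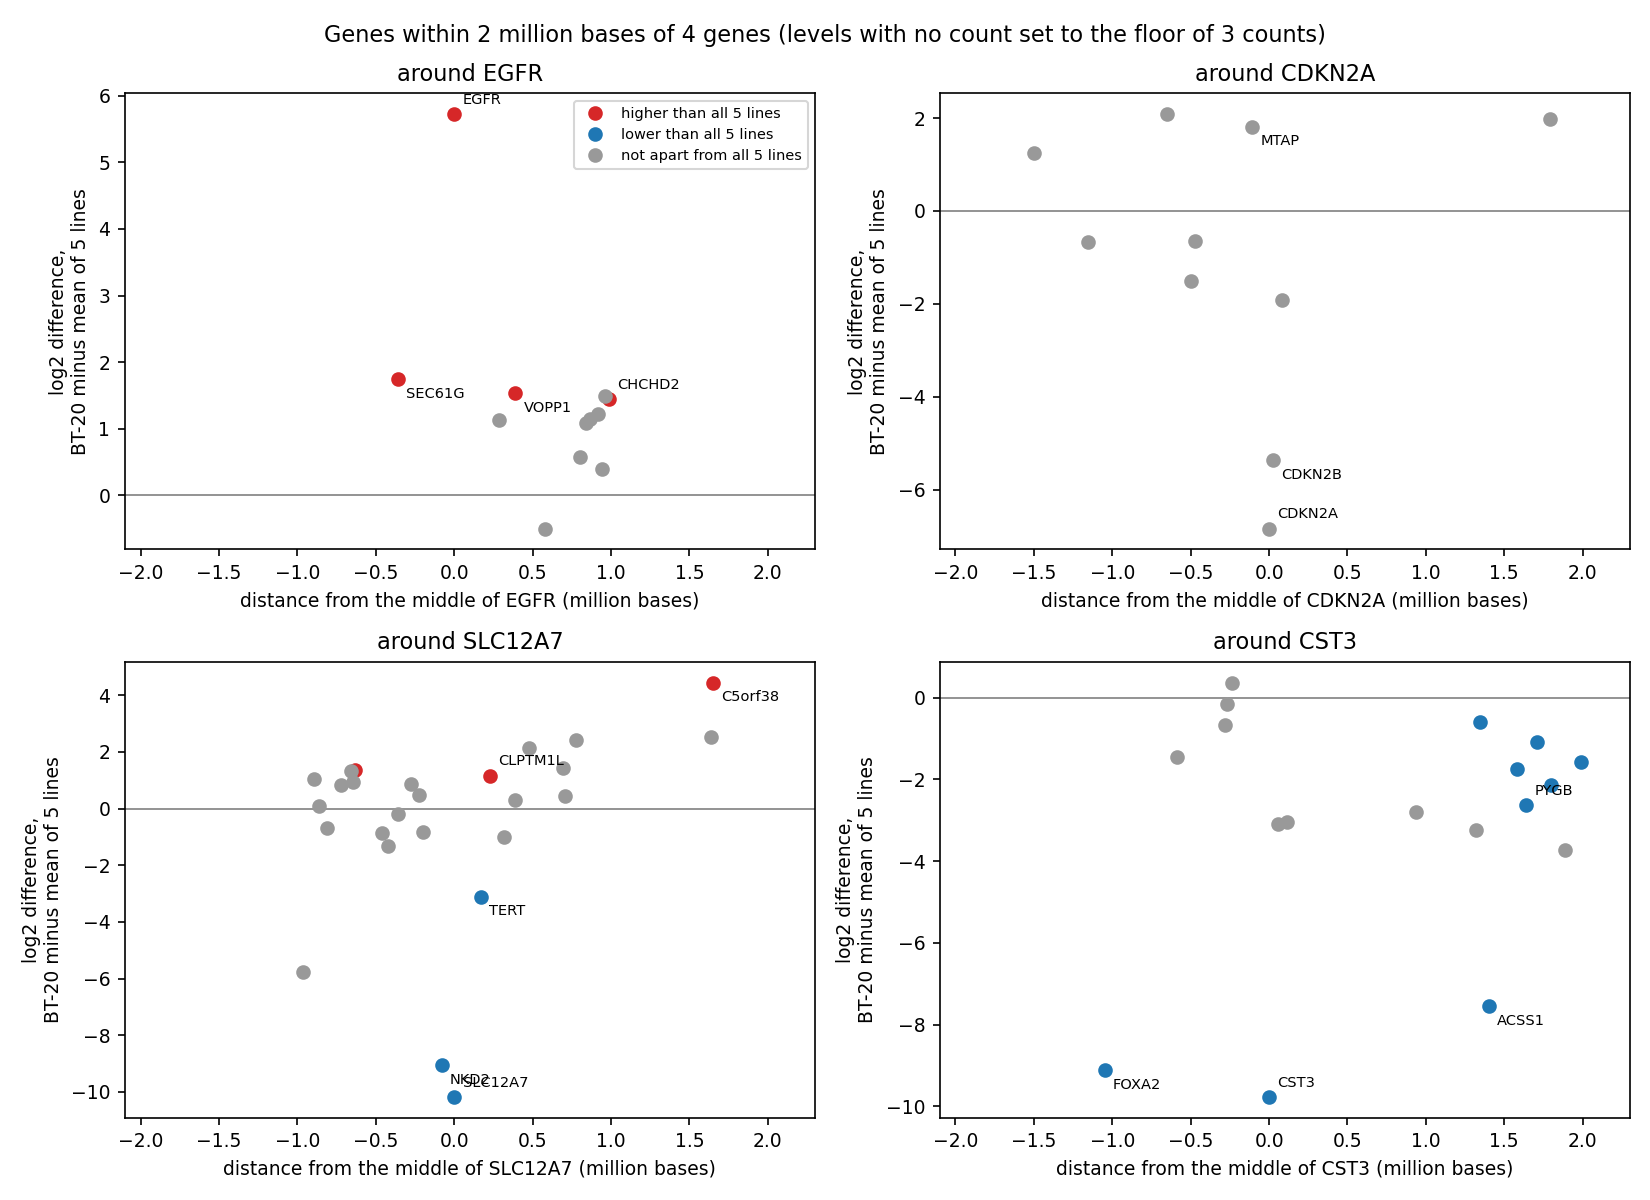
Difference between BT-20 and the mean of 5 lines (log2 of mean CPM, a level with no count set to the floor of 3 counts) for genes within 2 Mb of EGFR, CDKN2A, SLC12A7 and CST3, by distance from the middle of that gene. Red and blue points are genes higher or lower than in all 5 lines. Points around EGFR lie above 0 for all but 1 gene, while CDKN2A and CDKN2B lie far below MTAP, and SLC12A7 below CLPTM1L.

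Antioxidant and carbonyl-reducing enzymes were the list with the largest share of higher members. NRF2 is a transcription factor that oxidants and electrophiles stabilise and that switches on glutathione synthesis, NADPH supply and quinone reduction through the antioxidant response element, whose core is TGACNNNGC. Of 24 targets and aldo-keto reductases tested, 20 were higher and 2 lower than the mean of 5 lines, beside 37.0% and 30.4% of all genes, and 11 were higher than in all 5 lines beside 8.0%. The median log2 fold change was 1.79, beside 0.03 for all genes, and without control 1 of NCI-N87 the counts were 20 and 2. NQO1, a quinone reductase, had 2479, 2430.2 and 2370.2 CPM in BT-20, against 242, 348 and 810.0 CPM in the other 15 libraries. HMOX1, heme oxygenase, had 36.2, 39 and 39.3 CPM in BT-20, against 1.76, 4.34 and 14.5 CPM in the other 15 libraries. For glutathione and thioredoxin, GCLM, the modifier of glutamate-cysteine ligase, had 133, 138 and 120.0 CPM in BT-20, against 21.9, 35.3 and 54.3 CPM in the other 15 libraries, and TXNRD1, thioredoxin reductase, had 398, 439.6 and 411 CPM in BT-20, against 63.1, 112 and 237 CPM in the other 15 libraries. None of these 4 groups overlapped with the other libraries, and 12.3% of all genes tested lay wholly above the other libraries in the same way. The 4 were picked from members higher than in all 5 lines, so the lack of overlap adds little to those calls.

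Metabolic enzymes were also on the list. TALDO1, transaldolase of the pentose phosphate pathway, averaged 540.1 ± 13.1 CPM against 171 to 342 CPM, and ME1, malic enzyme, 71.8 ± 2.64 CPM against 20.9 to 49.5 CPM. Beside AKR1B1, its chromosome 7 neighbour AKR1B10 had 128, 129.7 and 126 CPM in BT-20, against 0, 1.79 and 29.7 CPM in the other 15 libraries. AKR1C2, a hydroxysteroid dehydrogenase, had 352, 355 and 369 CPM in BT-20, against 0, 2.42 and 64 CPM in the other 15 libraries, while AKR1C1, which is nearly identical in sequence, averaged 2.66 ± 0.348 CPM in BT-20 against 138 ± 24 CPM for MKN-45, so reads of the pair may have been split unevenly. GPX2, a glutathione peroxidase of gut epithelium, was lower at 0.336 ± 0.0567 CPM against up to 399 ± 45.2 CPM in NCI-N87. PGD and AKR1C1 did not pass, at log2 fold changes of 0.2 and −0.23, and UGDH was lower (−0.17, adjusted p = 0.033, edgeR).

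Promoter windows of RefSeq (300 bases, GRCh38.p14) were found for 18 of the 24 list members, and 6 of these held TGACNNNGC on either strand, beside 13.35% of all 35116 windows. A member with more than 1 window was counted once, whereas 13.35% is a share of windows. PGD, GPX2 and CBR1, which were not higher than in all 5 lines, were among the 6. Of the 8 members higher than in all 5 lines with a window, 3 held it: GCLM, ME1 and TXNRD1. Their windows are shown with each match in capitals, as these letters are the element named for this list. GCLM lies on the minus strand at chr1:93909381-93909680, ME1 on the minus strand at chr6:83431002-83431301 and TXNRD1 on the plus strand at chr12:104215529-104215828.
GCLM: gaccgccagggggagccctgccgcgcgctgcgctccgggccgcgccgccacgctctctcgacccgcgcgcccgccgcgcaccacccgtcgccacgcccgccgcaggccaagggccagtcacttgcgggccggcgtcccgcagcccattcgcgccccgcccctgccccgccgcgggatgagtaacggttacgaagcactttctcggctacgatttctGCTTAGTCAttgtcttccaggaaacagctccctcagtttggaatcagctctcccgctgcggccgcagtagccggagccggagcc
ME1: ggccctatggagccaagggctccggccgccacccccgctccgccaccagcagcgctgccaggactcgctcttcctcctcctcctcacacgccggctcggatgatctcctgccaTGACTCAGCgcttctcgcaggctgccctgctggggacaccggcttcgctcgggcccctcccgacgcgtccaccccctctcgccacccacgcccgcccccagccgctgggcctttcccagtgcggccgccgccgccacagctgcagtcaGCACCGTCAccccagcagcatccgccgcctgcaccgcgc
TXNRD1: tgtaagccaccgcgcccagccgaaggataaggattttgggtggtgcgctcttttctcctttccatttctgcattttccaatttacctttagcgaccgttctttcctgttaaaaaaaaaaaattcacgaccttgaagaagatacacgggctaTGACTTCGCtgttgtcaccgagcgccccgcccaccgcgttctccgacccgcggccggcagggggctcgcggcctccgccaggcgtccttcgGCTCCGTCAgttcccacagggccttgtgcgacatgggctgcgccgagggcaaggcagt
GCLM holds 1 match and ME1 and TXNRD1 hold 2 each in these windows. A second TXNRD1 window, at chr12:104286782-104287081, holds 1 match and is not shown. GSTP1, which is not on this list and was lower than in all 5 lines, also holds 1 match in its window. A match is a run of letters, and binding was not measured.

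**Figure D4:**
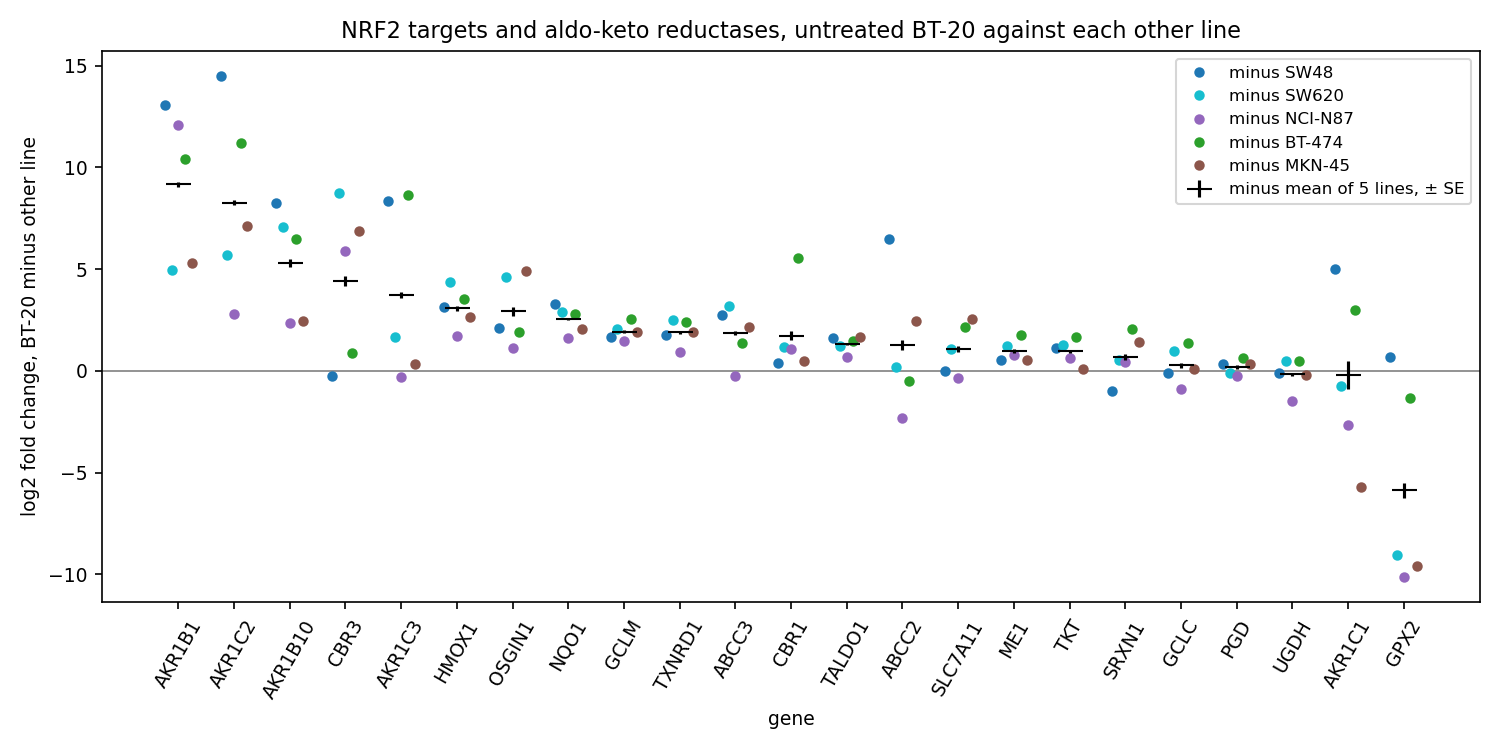
Log2 fold change of BT-20 against each of the 5 other lines (coloured points) and against their mean (black bar with SE) for 23 of the 24 genes of the NRF2 and aldo-keto reductase list, from the highest to the lowest mean. All 5 points lie above 0 for the first 3 genes, AKR1B1, AKR1C2 and AKR1B10, and for the 5 from HMOX1 to TXNRD1. The point of AKR1C2 against SW48 is a fitted value for a line with no count and sets no bound.

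Glutathione transferases and aldehyde dehydrogenases were divided, with 9 of 23 tested higher and 10 lower. Beside GSTP1 and ALDH2, ALDH1A1, a retinal dehydrogenase used as a stem cell marker, had no count in BT-20 against up to 196 ± 34.6 CPM in NCI-N87, and ALDH7A1 averaged 2.98 ± 2.55 CPM against 14.1 to 115 CPM, lower than in all 5 lines. MGST1, microsomal glutathione transferase, GSTK1 and ALDH3A2 were higher than in all 5 lines, MGST1 at 451 ± 20.1 CPM against 96.7 to 336 CPM. For MGST1, the call held in 20 of 23 alternative settings and was lost without BT-20 control 2, BT-20 control 3 or BT-474 control 2 (adjusted p up to 0.088 with 1 library left out, edgeR). Of 6 metallothionein genes tested 4 were higher and 0 lower, MT1E with a log2 fold change of 2.3, and the near-identical members may share reads.

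Glycolytic enzymes were lower at several steps. Beside LDHB, which had no count, HK2 (hexokinase), PFKP (phosphofructokinase), PGK1 (phosphoglycerate kinase), ENO1 (enolase) and the lactate exporter SLC16A3 were lower than in all 5 lines, which makes 6 of 26 tested beside 6.93% of all genes. PGK1 had 58.5, 50.5 and 62.7 CPM in BT-20, against 114, 264 and 412 CPM in the other 15 libraries. ENO1 had 568, 453 and 507 CPM in BT-20, against 770.1, 1300.4 and 1931 CPM in the other 15 libraries, and SLC16A3 had 7.33, 5.28 and 5.4 CPM in BT-20, against 18.1, 71.4 and 199.8 CPM in the other 15 libraries. LDHA, the other main lactate dehydrogenase subunit, averaged 109 ± 4.12 CPM, over SW48 with 87.9 ± 16.5 CPM and under the other 4 lines. Over the list 9 were higher and 12 lower, with a median of −0.07, or −0.14 with levels at no count set to the floor. STC1, a secreted glycoprotein on this list, had 366, 44.3 and 48 CPM in BT-20, and it was uneven inside other lines too, since NCI-N87 held 0 CPM in its lowest and 246 CPM in its highest library.

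Of 22 genes of ATF4 and amino acid synthesis 12 were higher and 4 lower (median 0.52). PHGDH, the first enzyme of serine synthesis, had 708, 716 and 733 CPM in BT-20, against 43, 156 and 207 CPM in the other 15 libraries, a gap of 1.88 on the log2 scale to BT-474 (adjusted p = 4.8e-07, edgeR). VLDLR, a lipoprotein receptor, averaged 19 ± 4.22 CPM against 0.0338 to 3.02 CPM, and DDIT3, the stress factor CHOP, 286 ± 14.8 CPM against 262 ± 2.52 CPM in SW48 and lower means elsewhere. Of 23 cholesterol synthesis genes 5 were higher and 10 lower. SQLE, CYP51A1 and DHCR7, enzymes of the sterol pathway, were lower than in all 5 lines, CYP51A1 at 32.9 ± 2.39 CPM against 55.8 to 149.8 CPM.

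Of 29 interferon-stimulated genes tested 16 were higher and 6 lower, beside 37.0% and 30.4% of all genes, with a median of 0.82. There were 5 higher than in all 5 lines beside 8.0%, among them the transcription factor IRF9, the membrane proteins IFITM1 and BST2 (tetherin), and XAF1, which promotes cell death. BST2 had 61.1, 67.9 and 66.2 CPM in BT-20, against 0, 2.77 and 22.1 CPM in the other 15 libraries. XAF1 had 25, 30.5 and 23.6 CPM in BT-20, against 0, 0.372 and 3.1 CPM in the other 15 libraries, and IFITM1 had 49, 45 and 47.3 CPM in BT-20, against 0, 1.22 and 29.9 CPM in the other 15 libraries. IFI27, by contrast, held 1 count against up to 42.1 ± 4.85 CPM in NCI-N87, and the call held in 9 of 23 alternative settings (adjusted p up to 0.17 with 1 library left out, edgeR). Of 15 genes of MHC class I antigen presentation 9 were higher and 2 lower, beside 37.0% and 30.4% of all genes (median 0.72). The immunoproteasome subunit PSMB10 was higher than in all 5 lines with 143, 136 and 139 CPM in BT-20, against 17.7, 24 and 61.6 CPM in the other 15 libraries, and PSMB9 averaged 47.9 ± 2.18 CPM, beside NCI-N87 at 46.3 ± 13.8 CPM.

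Of 34 inflammatory and NF-kappaB genes 17 held 3 counts or fewer in BT-20, among them CXCL1, IL8, IL6 and IL1B, and of 25 tested 10 were higher and 7 lower. TNFAIP2 was higher than in all 5 lines at 241 ± 9.47 CPM against 4.76 to 153 CPM. LCN2, an iron-binding lipocalin of inflamed epithelia, averaged 282 ± 13.4 CPM, against 323 ± 37.4 CPM in NCI-N87 and at most 18.4 CPM in the other lines. Among S100 proteins, annexins and caveolins 8 of 26 were higher and 16 lower. S100A8, the partner of S100A9, had 17, 13.7 and 17 CPM in BT-20, against 0, 0 and 7.07 CPM in the other 15 libraries, while S100A4 had 17.1, 18.5 and 23.5 CPM in BT-20, against 104, 696 and 2961 CPM in the other 15 libraries and S100A6 averaged 464 ± 8.94 CPM against 1451 to 7015 CPM. S100A8 and S100A9 were thus higher and S100A4 and S100A6 lower than in all 5 lines.

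Secreted proteases showed single genes at both ends. Of 9 kallikreins tested 4 were higher and 3 lower (median −2.91, or −2.12 with levels at no count set to the floor). KLK8 had 69.9, 63.1 and 65.4 CPM in BT-20, against 0, 0.684 and 15.4 CPM in the other 15 libraries, whereas KLK11 had no count against 1.3 to 46.2 CPM and KLK10 averaged 2.0 ± 0.410 CPM against 3.01 to 556 CPM. Of 23 matrix proteases and inhibitors 8 were higher and 7 lower. PLAU, the urokinase that activates plasmin, and SERPINB5, the inhibitor maspin, had no count in BT-20, against 4.74 to 18.4 CPM and 0.462 to 183 CPM, and both were lower than in all 5 lines. For SERPINB5, the call held in 19 of 23 alternative settings and was lost without BT-20 control 1, BT-20 control 2, BT-20 control 3 or BT-474 control 2 (adjusted p up to 0.44 with 1 library left out, edgeR). Among 19 integrins and laminins 9 were higher and 8 lower. ITGB6, an integrin subunit that activates TGF-beta, had 59.7, 61.2 and 57.3 CPM in BT-20, against 3.04, 4.92 and 28.2 CPM in the other 15 libraries, LAMA5, a laminin chain of basement membranes, had 314, 287 and 314 CPM in BT-20, against 42.4, 57.3 and 248 CPM in the other 15 libraries, and ITGA2, a collagen receptor subunit, was lower than in all 5 lines at 11.7 ± 1.54 CPM against 17.8 to 104 CPM. For ITGA2, the call held in 22 of 23 alternative settings and was lost without BT-20 control 1 (adjusted p up to 0.059 with 1 library left out, edgeR). Of 12 mucins and trefoil peptides 4 were higher and 5 lower. MUC16 (CA125) averaged 5.59 ± 0.223 CPM against 0 to 0.365 CPM, higher than in all 5 lines except under the DESeq2 test (adjusted p = 0.31), and MUC1 averaged 168 ± 11.4 CPM, beside MKN-45 with 167 ± 16.8 CPM.

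Among TGF-beta and BMP genes 9 of 25 were higher and 9 lower. INHBA, which forms activin A, had 19.9, 21.1 and 17 CPM in BT-20, against 0, 0.144 and 2.56 CPM in the other 15 libraries, while BMP4, a ligand of the same family, had 31.9, 41.5 and 37.3 CPM in BT-20, against 74.8, 1062 and 3306 CPM in the other 15 libraries, lower than in all 5 lines. INHBB averaged 319 ± 13.1 CPM, between BT-474 with 197 ± 13.1 CPM and SW620 with 550.4 ± 62.9 CPM. Of 28 WNT ligands, receptors and antagonists 9 were higher and 10 lower. WNT5A, a ligand that acts without beta-catenin, had 20.5, 18.5 and 21.2 CPM in BT-20, against 0, 0.144 and 4.54 CPM in the other 15 libraries, and SFRP1, a secreted WNT antagonist, 4.21, 4.2 and 1.76 CPM in BT-20, against 0, 0 and 0.144 CPM in the other 15 libraries. RNF43 and ZNRF3, ligases that remove WNT receptors, were lower than in all 5 lines, ZNRF3 at 33 ± 2.72 CPM against 51 to 209 CPM, and for ZNRF3, the call held in 21 of 23 alternative settings and was lost without BT-20 control 1 or MKN-45 control 3 (adjusted p up to 0.099 with 1 library left out, edgeR). NOTUM, a WNT-inactivating enzyme, had no count in BT-20 or MKN-45 and 627 ± 32 CPM in SW620. Of 32 HOX genes 10 were higher and 11 lower. HOXA10 had no count against 5.62 to 139 CPM, at least 44.3-fold lower than in BT-474. HOXA9 and HOXA7, next to it in the cluster and averaging under 2 CPM in every other line, had no count in BT-20 either, while HOXA5 and HOXA11 averaged 35.7 ± 2.52 CPM and 6.98 ± 1.69 CPM.

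Only 7 of 25 cancer-testis antigen genes passed the filter, so their count says little of the family. Of the 7, 5 were higher and 0 lower, and MAGEA3, MAGEA12 and SAGE1 were higher than in all 5 lines. Because MAGEA12 and SAGE1 were near 0 in every other line, they passed the filter through BT-20 alone and could only be called higher. The SAGE1 call was lost under the DESeq2 test alone (adjusted p = 0.46). MAGEA12 had 12.9, 12 and 13.6 CPM in BT-20, against 0, 0 and 0.276 CPM in the other 15 libraries, and SAGE1 had 3.12, 2.64 and 4.65 CPM in BT-20, against 0, 0 and 0 CPM in the other 15 libraries. MAGEA3 averaged 12.2 ± 1.0 CPM, but it is nearly identical to MAGEA6, which averaged 5.28 ± 0.898 CPM in BT-20 against 10.8 ± 6.94 CPM for MKN-45, so the 2 cannot be told apart with certainty. PRAME had 24, 27.5 and 21.4 CPM in BT-20, against 0, 0 and 20.2 CPM in the other 15 libraries, with MKN-45 close below.

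The genes that set BT-20 apart were spread unevenly over the chromosomes, a breakdown chosen after the data were seen. Of 585 tested genes on chromosome 10, 110 were lower than in all 5 lines (18.8%) and 31 higher (5.3%), and the median log2 fold change was −0.62. Chromosome 12 followed with 13.1% lower and 4.4% higher, and chromosome 8 with 10.8% lower. The largest shares of higher genes were on chromosomes 21 (13.6% of 154), 16 (13.3% of 649), 20 (12.6% of 390) and X (12.1% of 487). Over the 14371 genes with a position, 7.94% were higher and 7.18% lower. Genes of a chromosome are not independent of each other, and no test was made of these shares.

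**Figure D5:**
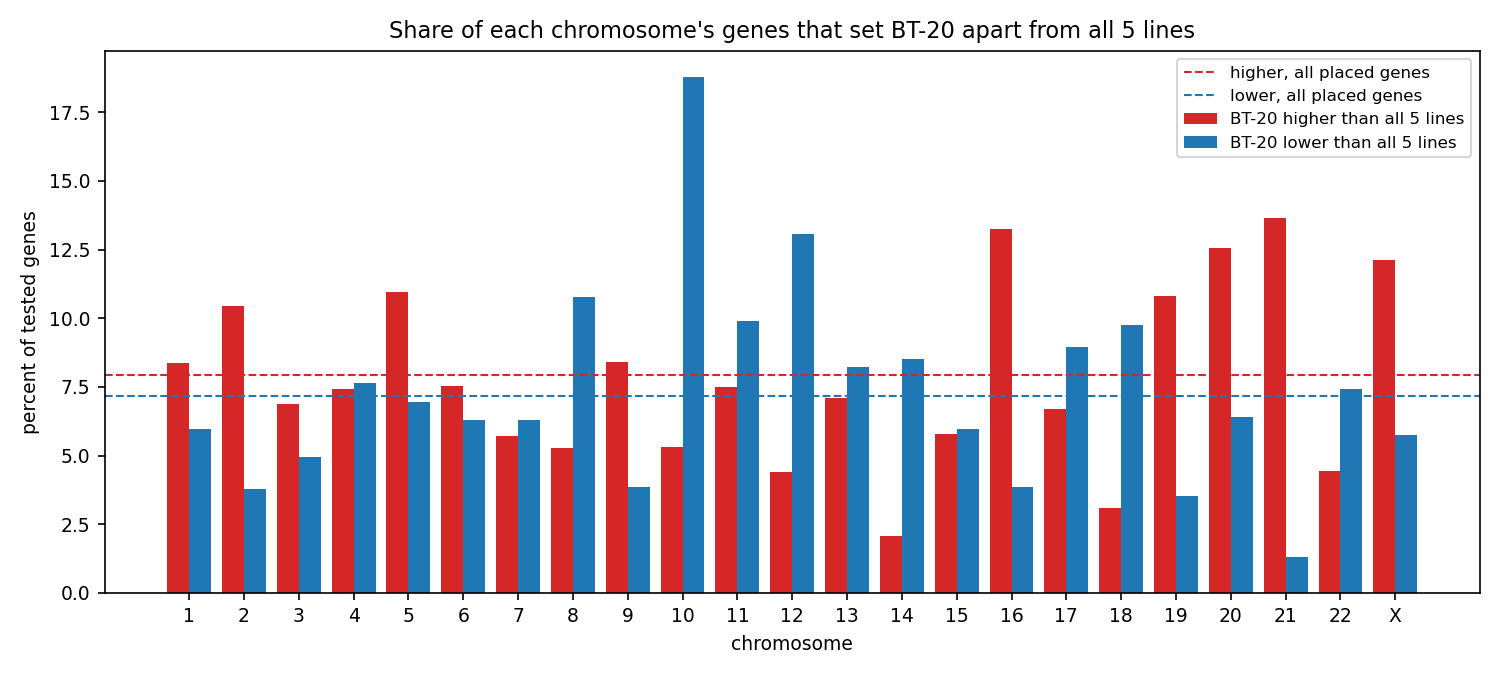
Percent of the tested genes of each chromosome that were higher (red) or lower (blue) in BT-20 than in all 5 other lines. Dashed lines mark the share over all genes with a position, and chromosome 10 has the tallest blue bar at 18.8%.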

How the data were processed

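The deposited table gives unnormalized counts (whole numbers) for 33119 gene symbols, which the authors made with Trimmomatic, STAR and featureCounts on hg38, per the submitters' processing notes; the sources used here give no versions, annotation or strand setting. Its columns were matched to the labels by title. From these counts the 18 control libraries were fitted together with edgeR 4.0.16 in R 4.3.3 (filterByExpr with a minimum count of 10 and total of 15, TMM scaling, quasi-likelihood test, two-sided, Benjamini-Hochberg over 15211 genes, threshold 0.05), with a mean per line and contrasts of BT-20 minus each line and minus the mean of 5. CPM divides counts by the TMM-scaled library total. Fold changes are differences of fitted logs, and for a gene with no count they set no bound, so a floor of 3 counts over a line's 3 libraries was used. In 469 genes BT-20 and another line had no count, and the contrast with the mean cannot call these (PGR, CDKN2B, NOTUM and CXCL1 among them). The 12 afatinib libraries were fitted alone, as were the 6 BT-20 libraries. On simulated counts for the apart-from-all-5 test (14674 genes), 88 of 100 genes changed 2-fold and 99 of 100 changed 4-fold were recovered, with 4 false calls. All changed genes were raised above the highest line and drawn from genes clearly read in that line. Recovery of lower genes, or of genes near 0 in every other line, was therefore not tested.

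Members and the gene lists were chosen with earlier results of these data known. Lists are described by counts and medians. Genes named are the 20 highest and 15 lowest by the gap to the nearest line among genes apart by at least 2-fold with no overlap and at least 20 CPM in BT-20 (higher) or in every other line (lower), up to 4 called members per list by the size of the fold change, fixed genes, and genes within 2 Mb of EGFR and CDKN2A. Other names, among them further list members, were chosen after their values were seen. Symbols turned into dates (26) and locus identifiers were not named. Positions and promoter windows are from RefSeq GRCh38.p14, matched for 25116 symbols, and gene overlaps from GENCODE 29. Replicate libraries of no line agreed within sampling noise. Labels give replicate numbers 1 to 3 in each group, but same-numbered libraries did not deviate together (mean correlation of deviations −0.00133 over 45 pairs, against 0.000693 for 90 pairs of different number), so no block was used in the main fits. Alternatives were DESeq2 1.42.0, its size factors, no filter, a replicate block, robust dispersion and leaving out libraries or lines. The alternatives for BT-20 afatinib against control were chosen after the data were seen. The 26 genes of the fixed list had 8 higher and 10 lower. The first set of the series and the drug libraries of the colorectal lines were not used here, and some genes are not reported here.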

Additional observations from a re-analysis of the deposited data

How the results depend on the processing

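Each count over all genes tested kept within 1.5 times its value under DESeq2's size factors, no filter, the DESeq2 test, the replicate block and robust dispersion, where run, except in the comparison of afatinib with control in BT-20. Some counts of list members moved by more over the settings. Lower mesenchymal genes ran from 3 to 6, and higher matrix proteases and inhibitors from 5 to 8. Without the line NCI-N87, the genes apart from all lines numbered 3722 (2271 with it) and those apart by at least 2-fold 1559 (999 with it). Without another line instead, they ran from 2619 to 3051 and from 1215 to 1482. A gap of at least 4-fold left 438. Leaving out single libraries gave 9470 to 10593 genes different from the mean of 5 lines, 1883 to 2318 apart from all 5 and 888 to 1020 by at least 2-fold. For afatinib against control in BT-20 (75 genes) it gave 6 to 96, no filter gave 497, DESeq2 163 and the replicate block 5, and the cause was not tested. Among the control counts, the replicate block changed the genes different from the mean of 5 lines to 10103 and those apart from all 5 to 2151. The sign of MIR31HG, which was not called, turned: it ran from −0.48 to 0.40 on the log2 scale with single libraries left out, with 0.022 under DESeq2's size factors. Levels of under about 0.13 CPM lie below the floor of 3 counts for BT-20.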
